A study of Mus musculus with 48 samples.

Results

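Arrested Ku70-/- pro-B cells given the ligase inhibitor L82-G17 were compared with the same cells given solvent, through the joints made by the coding end of the Jκ1 break. The members were chosen by their labels: genotype Ku70-/-, Jκ1 coding end bait, and STI-571 with either L82-G17 or DMSO. These are 6 of the 48 libraries of the series, 3 with L82-G17 (25 μM) and 3 with DMSO, all from cells held in STI-571 (3 μM) for 96 h with the inhibitor added on the same day. The cells are the mouse vAbl pro-B line, kept in cycle by the Abelson kinase, and the methods name 1 clone per genotype. HTGTS-JoinT-seq amplifies genomic DNA outward from a fixed end beside the Jκ1 break and lists, for each read pair, the place in the genome (the prey) that was joined to it. Other coding end libraries are used below only for comparison: Ku70-/- with L67 (5 μM), cycling Ku70-/-, and WT with DMSO or L82-G17, 3 each.

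RAG1/2 cuts between a coding segment and its recombination signal sequence, which leaves a hairpin-sealed coding end (CE) and a blunt signal end (SE) on each side. In normal V(D)J recombination, Ku starts nonhomologous end joining, coding ends are joined to coding ends and signal ends to signal ends. A coding end joined to a signal end is a hybrid joint. Cells that lack Ku70 still join these breaks by alternative end joining (A-EJ), which loses more bases from the ends and more often pairs short stretches of shared sequence, microhomology (MH), before ligation. DNA ligases I, III and IV seal breaks in mammalian nuclei. L82-G17 is a selective inhibitor of DNA ligase I, the replicative ligase, and L67 inhibits ligases I and III. In the study's Western blots of Ku70-/- cells in STI-571, ligase I protein was almost gone at the last day sampled, while ligase III fell slightly. Whether ligase I inhibition underlies the differences below was not tested. STI-571 blocks the Abelson kinase, arrests the cells in G0-G1 and lets RAG1/2 cut the Igκ locus.

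The break at Jκ1 lies before position 70672556 of chromosome 6 on mm9, where the coding segment Igkj1 (70672556 to 70672593, ENSMUSG00000076604.1) begins. Its sequence is shown first, because every joint below starts from it, read 5′ to 3′ on the plus strand of chr6:70672517-70672593 with the nonamer and the heptamer of its signal sequence in capitals.
Jκ1: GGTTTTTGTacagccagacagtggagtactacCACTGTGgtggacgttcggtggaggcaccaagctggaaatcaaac
Vκ segments carry the matching signal sequence on their 3′ side. The sites below are the 3 most used in the DMSO libraries and the 4 whose usage was lower in every L82-G17 library with the smallest p. Each shows 30 coding bases, then the heptamer and nonamer in capitals with their spacer between them, on the strand of the gene. They lie at chr6:67560473-67560530 (plus strand), chr6:70023990-70024047 (minus), chr6:69714489-69714546 (minus), chr6:70321958-70322015 (plus), chr6:70166824-70166881 (minus), chr6:67904194-67904251 (minus) and chr6:68812231-68812288 (minus), in this order. All 7 carry the heptamer CACAGTG, as do 111 of the 138 Vκ break sites placed below.
Igkv1-135: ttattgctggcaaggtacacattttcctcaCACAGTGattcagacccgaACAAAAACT
Igkv6-32: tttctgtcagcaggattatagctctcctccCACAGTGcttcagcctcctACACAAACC
Igkv12-46: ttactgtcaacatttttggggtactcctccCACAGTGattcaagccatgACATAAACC
Igkv6-17: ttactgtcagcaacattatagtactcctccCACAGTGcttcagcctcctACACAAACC
Igkv8-24: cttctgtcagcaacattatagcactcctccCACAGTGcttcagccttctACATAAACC
Igkv9-123: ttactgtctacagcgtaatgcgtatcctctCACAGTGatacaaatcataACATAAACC
Igkv1-88: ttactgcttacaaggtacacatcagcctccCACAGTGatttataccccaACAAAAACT

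The joints themselves are shown as the strand that runs from the Vκ prey into Jκ1, 25 bases from each end taken from the reference, with the shared bases of a microhomology in capitals. A base shared by both ends is counted for both, so the lengths lost are the smallest each end can have. The 4 most frequent CE-CE joints found in all L82-G17 libraries joined Igkv12-46, Igkv12-44 and Igkv12-41 to Jκ1 after loss of 4 Jκ1 bases. 3 of them lost 6 Vκ bases and share the bases AC, and the direct joint of Igkv12-44 lost 4.
Igkv12-46 CE-CE, MH of 2 bp: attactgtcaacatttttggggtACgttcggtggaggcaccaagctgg
Igkv12-44 CE-CE, MH of 2 bp: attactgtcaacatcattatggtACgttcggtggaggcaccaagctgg
Igkv12-44 CE-CE, direct: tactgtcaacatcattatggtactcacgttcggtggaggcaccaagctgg
Igkv12-41 CE-CE, MH of 2 bp: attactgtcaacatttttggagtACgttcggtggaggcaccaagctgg
Of the listed reads with these same ends, 91.9%, 74.4%, 96.2% and 92.2% held these letters without a change. The first made up 2.61, 0.93 and 1.57 per 1000 Vκ junctions in the L82-G17 libraries and 0.00, 1.13 and 1.63 in the DMSO libraries. It was thus found at like levels in DMSO libraries 2 and 3. The direct Igkv12-44 joint made up 0.81, 1.84 and 1.86 per 1000 with L82-G17 and 0.00, 0.17 and 0.61 with DMSO, higher in every L82-G17 library. Joints were required in all L82-G17 libraries and ranked by their mean there, so a higher level than with DMSO partly follows from the choice. The most copied joints of the DMSO libraries need not be among them.
The most frequent hybrid joints with L82-G17 join the Vκ signal side, with its heptamer trimmed away or partly kept, to Jκ1. The last one is the most frequent hybrid joint without insertion that lost over 50 bp of the prey end.
Igkv4-81 hybrid, MH of 3 bp: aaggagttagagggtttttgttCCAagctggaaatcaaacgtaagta
Igkv3-12 hybrid, MH of 2 bp: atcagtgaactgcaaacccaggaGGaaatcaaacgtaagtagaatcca
Igkv8-16 hybrid, MH of 1 bp: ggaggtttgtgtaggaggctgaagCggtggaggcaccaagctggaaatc
Igkv9-120 hybrid, MH of 1 bp: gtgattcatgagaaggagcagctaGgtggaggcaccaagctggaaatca
The Igkv4-81 joint lost 15 bases of the signal end and 20 of Jκ1, and the Igkv9-120 joint lost 60 and 10. Each of these 4 stood at under 1 per 1000 Vκ junctions in every L82-G17 library. The Igkv8-16 joint made up 6.69 per 1000 in DMSO library 1 and 0.25 and 0.43 in DMSO libraries 2 and 3.

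The authors took every library to 500000 read pairs, and duplicate reads were kept. The L82-G17 libraries hold 132124, 130546 and 134894 junctions and the DMSO libraries 133143, 153717 and 150309. DMSO library 1 stood apart: only 889 of its 94115 Vκ junctions were distinct. DMSO libraries 2 and 3 held 12885 and 12042 distinct ones, and the L82-G17 libraries 14116, 10744 and 13972. In an equal draw of 50000 Vκ junctions it held 692 distinct ones, DMSO libraries 2 and 3 held 10163 and 9675, and the L82-G17 libraries held 11275, 8833 and 11440. The study's own lists of coding end libraries contain DMSO libraries 2 and 3 and not library 1. Each result is therefore given by library, and without DMSO library 1 where that matters. Apart from it the ranges of the groups overlap in complexity (exact permutation p = 0.3 for the draw, over all 6). The library is the replicate. With 3 against 3 the exact two-sided permutation test over 20 splits cannot go below p = 0.1, so 0.1 marks groups without overlap and no measure can pass 0.05 by it. The study describes its experiments as biologically repeated but does not name these L82-G17 libraries, and nothing in the labels says that libraries of a group came from separate cultures, so p-values measure the spread between libraries, which may be technical. Of 24 measures compared, 9 had no overlap between groups (adjusted p = 0.267 for each, Benjamini-Hochberg over the 24 exact tests), and 16 had none without DMSO library 1.

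V-J recombination efficiency per read pair overlapped between the treatments. V-J Eff, the Vκ junctions as a share of read pairs, was 20.69%, 20.54% and 20.96% with L82-G17 and 18.8%, 22.4% and 21.5% with DMSO. The means were 20.7% ± 0.209 and 20.9% ± 1.88 (SD, n = 3 each), a difference of -0.20 percentage points that is smaller than the spread of the DMSO libraries (exact permutation p = 0.9). Without DMSO library 1 all L82-G17 libraries lie below both DMSO libraries, by 1.25 points on average. As a share of all junctions listed, in place of read pairs, the direction turned: Vκ junctions made up 78.2% on average with L82-G17 and 71.8% with DMSO, 6.46 points higher with no overlap (exact permutation p = 0.1). The 95% Wilson interval of a single library is narrow, 18.7% to 18.9% for DMSO library 1, but covers counting error only and takes amplified copies as independent. Cycling Ku70-/- cells, the background before arrest, had V-J Eff of 0.936% to 1.23%.

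Within that level, the ratio of the kinds of joint was higher with L82-G17 in every library, over all junctions and counted once. CE-CE joints numbered 79351, 78893 and 79331 with L82-G17 and 56229, 75403 and 72197 with DMSO. Hybrid joints numbered 24111, 23831 and 25452 with L82-G17 and 37886, 36698 and 35545 with DMSO. Both counts separate the groups over all junctions, copies included, but not as distinct joints. Distinct CE-CE joints numbered 10464, 7942 and 10340 with L82-G17 and 561, 8071 and 7654 with DMSO. Distinct hybrid joints numbered 3652, 2802 and 3632 against 328, 4814 and 4388, lower than in DMSO libraries 2 and 3 and higher than in library 1. The CE-CE to hybrid ratio was 3.29, 3.31 and 3.12 with L82-G17 and 1.48, 2.05 and 2.03 with DMSO. On the log2 scale the difference was 0.82 (exact permutation p = 0.1), and 0.66 without DMSO library 1. Counting each distinct junction once, which removes copies, gave ratios of 2.87, 2.83 and 2.85 with L82-G17 and 1.71, 1.68 and 1.74 with DMSO. DMSO library 1 lies with the other DMSO libraries on this count. The cycling cells stood at 1.32 to 1.58 over all junctions and at 1.21 to 1.37 counted once.

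**Figure D1:**
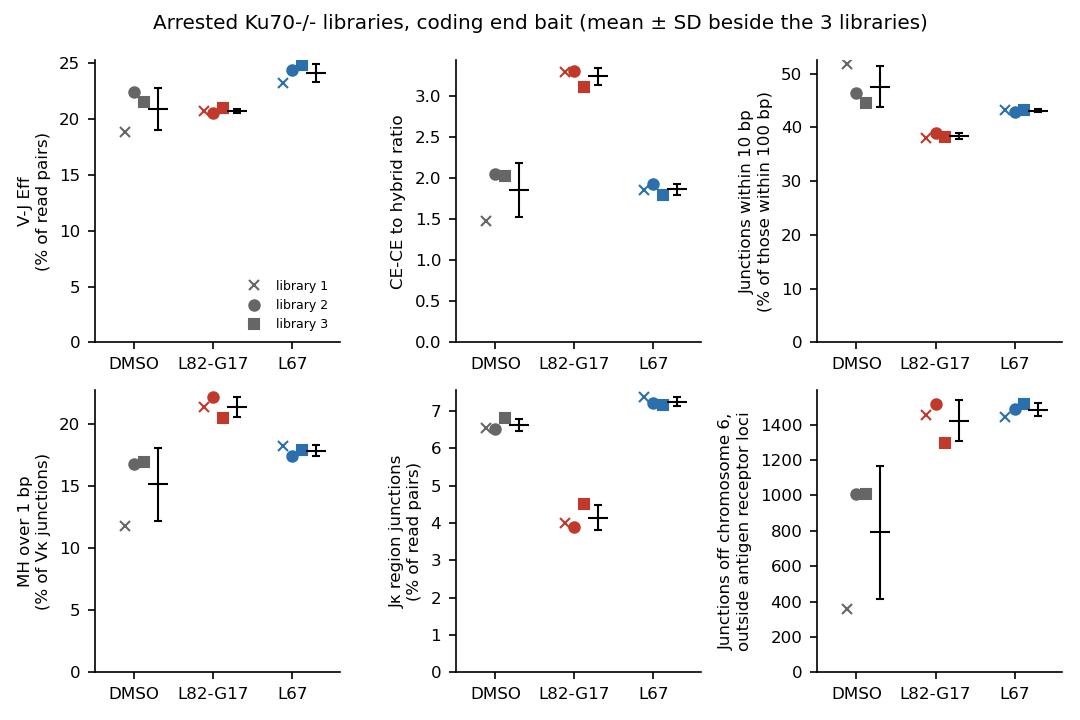
The 6 measures of the arrested Ku70-/- coding end libraries with DMSO, L82-G17 or L67. Points are libraries (cross, library 1; circle, library 2; square, library 3), with the mean and SD beside them, and every axis starts at 0. The L82-G17 libraries lie above all DMSO libraries in the CE-CE to hybrid ratio, MH over 1 bp and junctions off chromosome 6 outside antigen receptor loci. They lie below all of them in junctions within 10 bp and in the Jκ region, and within their range in V-J Eff.

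The higher ratio was found over the whole locus. Vκ break sites were placed where signal ends of arrested WT libraries piled up beside CAC, which gave 138 sites, 93 of them beside an annotated Vκ gene. At the 63 deletional and 75 inversional sites, which differ in whether the Vκ segment points the same way as Jκ1, the ratio was 4.58, 4.85 and 4.77 with L82-G17 against 2.28, 3.07 and 3.36 with DMSO at deletional sites. At inversional sites it was 2.79, 2.73 and 2.52 against 1.16, 1.65 and 1.53. By sub-TAD, the chromatin domains that divide the Vκ region, the groups did not overlap in any of the 4: the L82-G17 ratios ran from 3.76 to 4.06 in sTAD1-2, 3.83 to 4.87 in sTAD3, 3.17 to 3.57 in sTAD4 and 2.42 to 2.71 in sTAD5. The DMSO ratios ran from 1.09 to 3.02, 2.39 to 2.46, 1.30 to 1.85 and 1.43 to 1.84 in the same order. Of 96 single sites with at least 50 junctions on average, 62 had a higher ratio on average and 31 (32.3%) were higher in every L82-G17 library than in every DMSO library, with none lower in every one. Without DMSO library 1, 86 of the 96 had a higher ratio, 54 (56.2%) without overlap, and 2 were lower without overlap. The median site difference was 0.67 on the log2 scale over all libraries and 0.77 without DMSO library 1.

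**Figure D2:**
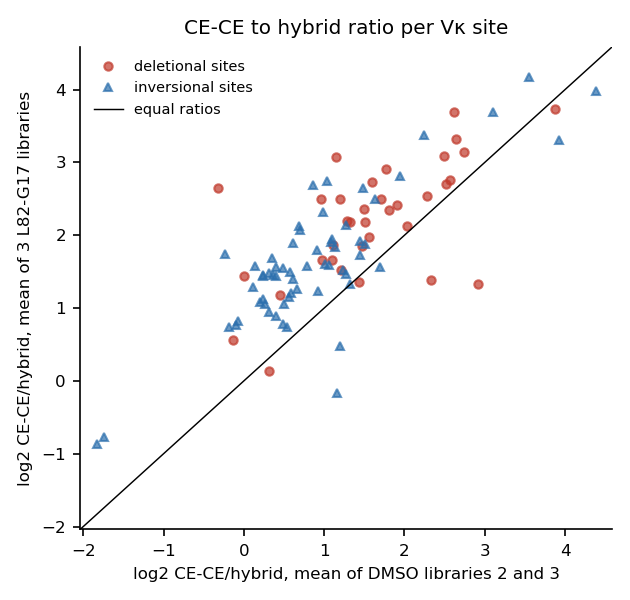
The log2 ratio of CE-CE to hybrid joints (1 junction added to each count) for 96 Vκ sites, with the mean of DMSO libraries 2 and 3 on the x axis and the mean of the 3 L82-G17 libraries on the y axis. Circles are deletional and triangles inversional sites, and 86 of the 96 lie above the line of equal ratios.

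The ends in these joints were trimmed further with L82-G17. Of the Vκ junctions within 100 bp of a break, 38.03%, 39.02% and 38.21% lay in the ±10-bp window with L82-G17 and 51.8%, 46.3% and 44.6% with DMSO. The mean difference was -9.15 points (exact permutation p = 0.1), and -7.03 without DMSO library 1. The median coding end had lost 14 bp in each L82-G17 library and 10, 12 and 12 bp in the DMSO libraries. The median signal end of hybrid joints had lost 14, 14 and 15 bp with L82-G17 and 12, 11 and 12 bp with DMSO.
The groups also did not overlap in the long tail. Joints that lost over 50 bp of the prey end made up 7.59%, 7.37% and 7.19% of Vκ junctions with L82-G17 and 3.26%, 3.78% and 3.84% with DMSO. Among hybrid joints alone the share was 11.1%, 11.1% and 10.5% against 0.504%, 4.29% and 4.04%, and among CE-CE joints 6.51%, 6.26% and 6.14% against 5.12%, 3.53% and 3.74%. Both kinds of joint separate the groups. Such long hybrids came from 80, 77 and 86 sites with L82-G17 and from 10, 72 and 68 sites with DMSO, so they were spread over the locus. Counted once, they made up 13.4%, 13.1% and 12.4% of distinct hybrid joints with L82-G17 and 3.66%, 5.80% and 5.31% with DMSO.
The bait end, Jκ1 itself, differed less. Its alignment ended within 10 bp of the break in 35.7%, 35.8% and 36.2% of Vκ junctions with L82-G17 and in 44.5%, 38.99% and 38.16% with DMSO. The median loss was 15 bp in all L82-G17 libraries and 13, 15 and 15 bp with DMSO. A loss of at least 30 bp was seen in 19.3%, 19.0% and 18.8% against 15.6%, 16.7% and 17.2%.

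**Figure D3:**
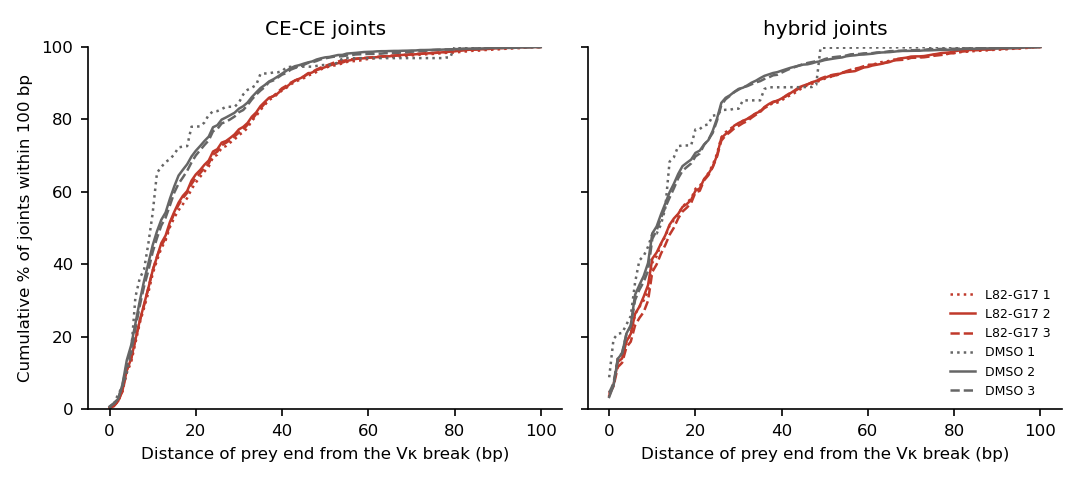
Cumulative percent of CE-CE joints (left) and hybrid joints (right) within 100 bp of the Vκ break against the distance of the prey end from the break in bp, 1 line per library. The L82-G17 curves (red) run below those of DMSO libraries 2 and 3 (grey, solid and dashed) over most of the range, and the gap at 50 bp is wider for hybrid joints. DMSO library 1 (grey, dotted) rises in steps, since few distinct joints make it up.

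The structure of the joints differed in microhomology. MH over 1 bp was used by 21.3%, 22.2% and 20.5% of Vκ junctions with L82-G17 and by 11.8%, 16.7% and 16.9% with DMSO, a mean difference of 6.20 points (exact permutation p = 0.1), and 4.51 without DMSO library 1. Counted once it was 18.2%, 19.6% and 17.8% against 16.2%, 15.9% and 16.2%, a smaller difference of 2.43 points, also without overlap. With copies counted, homologies of 2, 3 and 4 bp each separate the groups: 2 bp made up 11.9%, 12.3% and 11.5% against 5.69%, 10.2% and 10.1%, 3 bp 4.85%, 5.04% and 4.52% against 2.21%, 3.38% and 3.58%, and 4 bp 2.57%, 2.30% and 2.32% against 1.498%, 1.534% and 1.514%. Homologies of 5 to 8 bp overlap between the groups. Counted once, homologies of 3 bp or more made up 9.08%, 9.89% and 8.70% against 9.02%, 7.47% and 7.71%, which overlap through DMSO library 1. Direct joints remained the largest class at 48.2%, 48.8% and 48.7% with L82-G17 and 48.2%, 52.0% and 53.3% with DMSO, and DMSO library 1 overlaps the L82-G17 range. Joints with 1 bp of homology made up 27.9%, 26.9% and 28.3% against 39.1%, 28.6% and 27.1%. Insertions made up 2.58%, 2.13% and 2.55% against 0.878%, 2.63% and 2.63%. Neither of these classes separates the groups. In the cycling cells MH over 1 bp made up 32.7% to 39.2%.

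**Figure D4:**
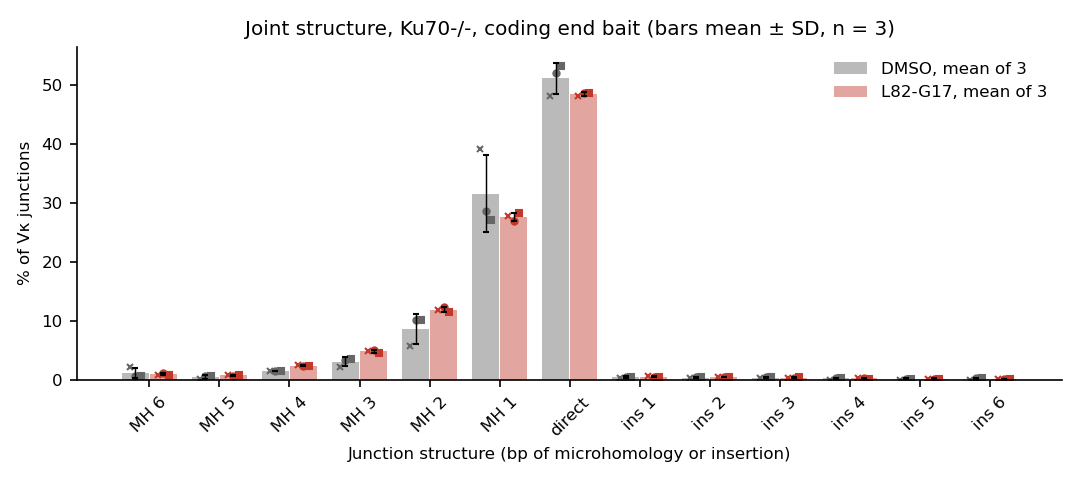
Percent of Vκ junctions by structure, from microhomology of 6 bp through direct joints to insertions of 6 bp. Bars are means of 3 libraries with SD, points are libraries, grey for DMSO and red for L82-G17. With copies counted, homologies of 2, 3 and 4 bp are higher in all L82-G17 libraries, and the tallest class is the direct joint in both groups.

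Microhomology and trimming can move together, so MH over 1 bp was also taken at like distances of the prey end, copies included. Loss from the Jκ1 end was not matched. Among joints 5 to 10 bp from the break it was 19.0%, 19.6% and 19.8% with L82-G17 against 9.21%, 15.54% and 15.01% with DMSO. At 21 to 40 bp it was 21.5%, 20.8% and 19.5% against 11.5%, 14.1% and 16.5%. The groups also did not overlap at 11 to 20 bp or at 41 to 100 bp. Nearest to the break, up to 4 bp, they overlapped at 18.9% to 21.6% against 6.10% to 20.3%, and farthest from it, over 100 and up to 200 bp, at 19.8% to 30.5% against 15.8% to 31.5%. Both kinds of joint showed it: CE-CE joints had 21.03%, 21.55% and 20.35% MH over 1 bp against 14.66%, 14.98% and 15.91%, and hybrid joints 22.39%, 24.29% and 20.97% against 7.46%, 20.3% and 19.0%.

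Junctions in the Jκ region around the bait were fewer with L82-G17, mostly those of Jκ1 with its own signal end. Junctions within 2 kb of the bait break made up 4.002%, 3.902% and 4.520% of read pairs with L82-G17 and 6.53%, 6.53% and 6.80% with DMSO, a mean difference of -2.48 points (exact permutation p = 0.1). Distinct junctions there numbered 2019, 1699 and 1948 with L82-G17 and 403, 2245 and 2106 with DMSO, lower with L82-G17 than in DMSO libraries 2 and 3 and higher than in library 1. Most of the junctions in the region were Jκ1 coding ends joined back to the Jκ1 signal end, the partner from the same cut: 15555, 14989 and 18509 with L82-G17 and 23152, 27694 and 29292 with DMSO. These rejoined breaks were more trimmed as well. The signal end lay within 10 bp of the break in 29.1%, 31.5% and 27.5% of them against 43.5%, 42.2% and 42.6%, and over 50 bp away in 14.3%, 14.5% and 16.1% against 3.02%, 7.46% and 6.27%. MH over 1 bp was used in 23.2%, 24.5% and 23.4% against 13.9%, 18.3% and 17.2%.
In the 2 kb downstream, which holds Jκ2 to Jκ5, preys on the plus strand are coding ends and preys on the minus strand signal ends. Coding end preys numbered 3618, 3464 and 3236 with L82-G17 and 6567, 3350 and 3076 with DMSO, which overlap. Signal end preys numbered 795, 1014 and 818 against 2937, 1549 and 1597, all lower with L82-G17. Their ratio was 4.55, 3.42 and 3.96 against 2.24, 2.16 and 1.93. Within 100 bp of the segment start, signal end preys at Igkj2 numbered 168, 321 and 129 against 753, 379 and 505, at Igkj4 283, 347 and 258 against 1379, 579 and 476, and at Igkj5 286, 309 and 337 against 789, 546 and 554. Downstream signal end preys outside these 3 windows, which include any at Igkj3, were not lower in every L82-G17 library. With copies counted, signal ends were thus joined to the Jκ1 coding end less often at the Vκ sites, at Jκ1 itself and at 3 downstream Jκ segments in every L82-G17 library.

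Use of the Vκ segments differed at no site that passed the test over all 6 libraries. By limma on log2 junctions per 1000 Vκ junctions (1 junction added), 0 of 96 sites (0.00%) passed an adjusted p of 0.05, and 7 had an unadjusted p below it. In 26 of the 96 (27.1%) the groups did not overlap, 17 higher and 9 lower with L82-G17. Without DMSO library 1, 9 of 97 sites (9.28%) passed, 4 higher and 5 lower.
The most used site was Igkv1-135, a distal deletional segment, with 54.7, 56.8 and 53.0 junctions per 1000 with L82-G17 and 37.4, 53.9 and 55.3 with DMSO. Igkv6-32 had 34.9, 29.2 and 33.6 against 30.8, 36.2 and 36.6, and Igkv12-46 had 29.5, 26.7 and 26.0 against 28.3, 36.5 and 28.8. In all 3 the groups overlap. The next 7 in the order of DMSO usage were Igkv11-125, Igkv6-17, Igkv8-21, Igkv4-81, Igkv1-110, Igkv1-117 and Igkv4-50. Their adjusted p ran from 0.120 (Igkv6-17) to 0.838 (Igkv4-81), and their log2 differences from -1.03 (Igkv6-17) to 0.31 (Igkv4-50). Neighbours in the middle of this order, such as Igkv6-17 at 28.2 ± 2.26 and Igkv8-21 at 26.6 ± 6.01 per 1000 (SD, n = 3 DMSO libraries), do not differ beyond their spread.
Of these 10, Igkv6-17 stood out. It had 14.03, 15.27 and 12.23 junctions per 1000 with L82-G17 and 30.7, 27.4 and 26.4 with DMSO, a log2 difference of -1.03 ± 0.207 (SE, limma adjusted p = 0.120), and -0.96 ± 0.137 without DMSO library 1 (limma adjusted p = 0.0170). The coding end of this deletional segment (ENSMUSG00000076590.2) is at position 70321987 of chromosome 6 in sTAD5.
Other sites were chosen after their values were seen, as the 4 with the smallest limma p among those without overlap. Igkv8-24 had 7.04, 6.57 and 6.98 per 1000 against 12.5, 14.3 and 14.2, a log2 difference of -0.99 ± 0.191 (SE, limma adjusted p = 0.120). Igkv9-123 had 1.03, 1.10 and 1.38 against 4.04, 2.75 and 4.09, with -1.61 ± 0.269 (SE, limma adjusted p = 0.120). Igkv1-88 had 13.9, 12.2 and 12.8 against 30.1, 20.9 and 21.2, with -0.87 ± 0.240 (SE, limma adjusted p = 0.330). All 4 sites passed without DMSO library 1, with limma adjusted p of 0.0170 (Igkv6-17), 0.00999 (Igkv8-24), 0.0170 (Igkv9-123) and 0.0189 (Igkv1-88). Counted once and without that library their log2 differences were -0.71, -0.95, -1.18 and -0.70. The other 5 that passed without it were Igkv9-124, lower, and Igkv4-58, Igkv2-116, Igkv2-109 and Igkv8-19, higher with L82-G17. Leaving out each library in turn, the log2 differences of Igkv9-124, Igkv4-58 and Igkv2-109 took both signs. That of Igkv8-19 ran from 0.91 to 3.94.

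Groups of sites were described by their median log2 difference, first over all 6 libraries and then without DMSO library 1. Over all 96 sites it was 0.29 and -0.01, and without that library 46 sites were above 0 and 49 below. Several family medians changed sign between both settings. The Igkv6 median (8 sites) was 0.15 and -0.28, the Igkv3 median (4 sites) 0.56 and -0.29 and the Igkv14 median (4 sites) 0.36 and -0.28, with all sites of the 3 families below 0 only without DMSO library 1. The 4 Igkv9 sites had medians of -0.45 and -0.54, below 0 in both. The 22 Igkv4 sites had 0.65 and 0.16, and the 5 Igkv5 sites 0.37 and 0.56, above 0 in both. The 35 deletional sites had 0.19 and -0.09 and the 61 inversional sites 0.37 and 0.06. The share of deletional joints was 36.2%, 37.4% and 37.0% with L82-G17 and 38.2%, 38.2% and 39.6% with DMSO, a difference of -1.79 points with no overlap (exact permutation p = 0.1), and of -3.05 points counted once. Counted once the shares were 32.2%, 32.9% and 32.4% against 37.7%, 33.8% and 35.1%, so DMSO library 1 widens that difference. By sub-TAD the medians were 0.19 and -0.04 (16 sites in sTAD1-2), 0.28 and -0.07 (21 in sTAD3), 0.73 and 0.18 (27 in sTAD4) and 0.21 and -0.07 (32 in sTAD5), and the shares of sTAD1-2, sTAD3, sTAD4 and sTAD5 overlap between groups. The 83 sites with CACAGTG had 0.28 and -0.02 and the 13 with another heptamer 0.37 and 0.05. The 81 sites beside an annotated gene had 0.22 and -0.02 and the 15 with none 0.41 and 0.00. The 4 Jκ-proximal segments Igkv3-7, Igkv3-4, Igkv3-3 and Igkv3-2 gave 5, 1 and 2 junctions in all with L82-G17 and 0, 1 and 3 with DMSO.

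Junctions outside chromosome 6, the translocations, numbered 1818, 2114 and 1548 with L82-G17 and 1423, 1617 and 1554 with DMSO, and the groups overlap (log2 difference 0.24, exact permutation p = 0.3). Counted once the difference was 0.75 with DMSO library 1 and 0.0975 without it. Their makeup differed. In the window of Igl, the other light chain locus and itself cut by RAG1/2, there were 319, 430 and 211 against 1065, 555 and 519, all lower with L82-G17. Outside the antigen receptor loci there were 1453, 1519 and 1298 against 358, 1011 and 1007, all higher (log2 difference 0.99, exact permutation p = 0.1), and 0.49 without DMSO library 1. Distinct junctions are far fewer. At Igl they numbered 51, 45 and 36 against 12, 70 and 76, and elsewhere 283, 218 and 251 against 61, 219 and 195, where the groups overlap. The junctions outside the receptor loci lay in 242, 180 and 216 windows of 1 Mb with L82-G17 and in 55, 196 and 174 with DMSO.
No window recurred in every L82-G17 library at a high count. By mean over the L82-G17 libraries alone, the top 3 were 34 Mb of chromosome 17, the mitochondrial genome and 70 Mb of chromosome 9. The window on chromosome 17 had 61, 0 and 0 junctions with L82-G17, from 3 distinct ones, and 0, 7 and 0 with DMSO. The mitochondrial genome had 0, 15 and 37, and 68, 17 and 0 with DMSO. The window on chromosome 9 had 1, 12 and 29, and 0 in all DMSO libraries. Igh had 27, 12 and 19 against 0, 27 and 0, Tcra/Tcrd 19, 153 and 18 against 0, 24 and 28, and Tcrg 0, 0 and 2 against 0 in all. Translocated joints had 44.1%, 50.6% and 45.5% direct joints with L82-G17 and 80.9%, 47.2% and 44.6% with DMSO, which overlap.

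WT cells were given the same dose, and the difference in effect between the genotypes was tested by permuting treatment within each genotype (400 splits, 7 measures). V-J Eff in WT was 35.8%, 34.6% and 39.6% with L82-G17 and 72.4%, 68.9% and 69.2% with DMSO, 33.5 points lower on average, while the Ku70-/- means differed by -0.20 points. The effects differ by 33.3 points (exact permutation p = 0.06, adjusted p = 0.1), and by 1.60 points of distinct junctions per read pair counted once (exact permutation p = 0.035). Counted once, Ku70-/- V-J Eff was 2.82%, 2.15% and 2.79% with L82-G17 and 0.178%, 2.58% and 2.41% with DMSO. Part of the 1.60 points thus rests on DMSO library 1. Total junctions in WT were lower too, at 193206, 186395 and 213122 with L82-G17 and 385847, 370032 and 370027 with DMSO. Of these, 179162, 172915 and 198151 against 361772, 344710 and 345774 were Vκ junctions, the large majority in both. The effects on total junctions differ by 164526 (exact permutation p = 0.095, adjusted p = 0.1). The CE-CE to hybrid ratio differed in the other direction in WT: 299, 246 and 294 with L82-G17 against 422, 538 and 463 with DMSO. On the log2 scale the effects were 0.82 in Ku70-/- and -0.76 in WT, a difference of 1.58 (exact permutation p = 0.005, the smallest these splits allow, adjusted p = 0.035). Counted once, the effects were 0.74 and -0.32, a difference of 1.06 (exact permutation p = 0.005). WT hybrids are rare: 597, 701 and 672 junctions with L82-G17 and 855, 640 and 745 with DMSO, which overlap. WT CE-CE joints numbered 178565, 172214 and 197479 against 360917, 344070 and 345029. The lower WT ratio thus reflects fewer CE-CE joints per read pair, not more hybrids. In the ±10-bp window WT libraries held 97.5% to 98.8% with L82-G17 and 97.8% to 98.2% with DMSO, and the effects differ by -9.43 points (exact permutation p = 0.025, adjusted p = 0.0583). For log2 translocations the difference was 0.64 (exact permutation p = 0.02, adjusted p = 0.0583), for direct joints -3.35 points (p = 0.075) and for MH over 1 bp 5.47 points (p = 0.1), both by exact permutation. WT MH over 1 bp was also higher in every L82-G17 library, at 2.61%, 2.86% and 2.99% against 2.10%, 2.08% and 2.10%. The WT Jκ region was lower too, at 0.790%, 0.946% and 0.897% of read pairs against 2.299%, 2.735% and 2.599%. The WT ratio of downstream coding to signal end preys was higher, 0.398 to 0.559 against 0.206 to 0.257. Neither of the last was tested between genotypes. Translocations are counted here per read pair, while WT libraries listed fewer junctions in all with L82-G17. WT translocations numbered 223, 251 and 188 with L82-G17 and 253, 284 and 334 with DMSO. Their mean fell from 290 to 221, a smaller relative fall than that of all listed junctions, from 375302 to 197574. Per listed junction they were thus not fewer on average in WT with L82-G17. The difference between genotypes in translocations per listed junction was not tested. Counted once, the difference was -14.5 points for the ±10-bp window (p = 0.01), 1.29 for log2 translocations (p = 0.01) and 1.96 points for MH over 1 bp (p = 0.1), by exact permutation. The WT window then held 82.5%, 85.4% and 77.6% with L82-G17 against 75.4%, 78.1% and 77.4% with DMSO. In Ku70-/- it held 27.8%, 29.6% and 28.3% against 43.0%, 36.4% and 35.5%. Part of the -14.5 points is thus a higher WT mean, and part rests on DMSO library 1. Distinct translocations in Ku70-/- numbered 339, 278 and 297 with L82-G17 and 73, 295 and 273 with DMSO. Part of the 1.29 thus rests on DMSO library 1. Each genotype is 1 clone, so genotype and clone cannot be told apart. In these splits a large effect in WT alone widens the permuted differences.

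**Figure D5:**
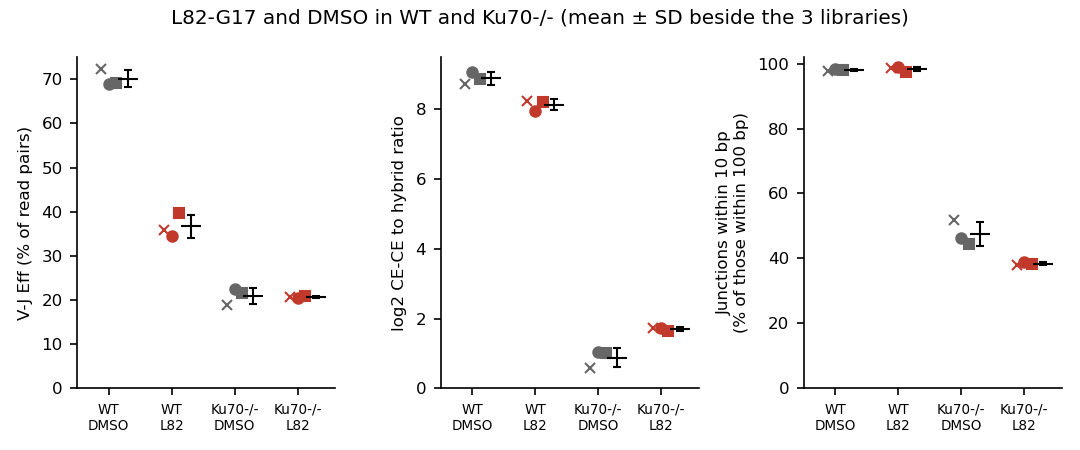
V-J Eff, log2 CE-CE to hybrid ratio and percent of junctions within 10 bp in WT and Ku70-/- coding end libraries with DMSO (grey) or L82-G17 (red). Points are libraries with the mean and SD beside them, and axes start at 0. V-J Eff is 34.6% to 39.6% with L82-G17 against 68.9% to 72.4% with DMSO in WT, and overlaps in Ku70-/-.

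L67, which also inhibits ligase III, was given at 5 μM and L82-G17 at 25 μM, so the doses are not matched and values are set side by side. The 7 measures of the Ku70-/- libraries had no overlap between the inhibitors (exact permutation p = 0.1 and adjusted p = 0.1 for each). Counted once, V-J Eff and translocations overlapped between them (exact permutation p = 0.4 and 0.3), and the difference in MH over 1 bp was 1.90 points in place of 3.50. V-J Eff was 20.7% ± 0.209 with L82-G17 and 24.1% ± 0.843 with L67, and the log2 CE-CE to hybrid ratio 1.70 ± 0.0479 and 0.90 ± 0.0527 (SD, n = 3 each). By library, V-J Eff with L67 was 23.2%, 24.4% and 24.9% with copies counted, above all DMSO libraries. The L82-G17 libraries lay within the DMSO range. The ±10-bp window held 38.4% ± 0.527 and 43.1% ± 0.232, and MH over 1 bp made up 21.3% ± 0.844 and 17.8% ± 0.416. Hybrid joints over 50 bp made up 10.9% ± 0.365 with L82-G17 and 4.55% ± 0.414 with L67, and the Jκ region 4.14% ± 0.332 and 7.25% ± 0.119 of read pairs. On the ratio and the long hybrids the L67 libraries lay near DMSO libraries 2 and 3, and on the Jκ region above all DMSO libraries. On several other measures they lay outside the DMSO range on the same side as L82-G17. The ±10-bp window held 43.1%, 42.8% and 43.3% with L67, below all DMSO libraries. MH over 1 bp made up 18.2%, 17.4% and 17.9%, above all of them. Junctions off chromosome 6 outside antigen receptor loci numbered 1444, 1490 and 1519, above all DMSO libraries and within the range of 1298 to 1519 with L82-G17. Counted once they numbered 328, 278 and 217 with L67 and 61, 219 and 195 with DMSO, which overlap. The Jκ1 end lay within 10 bp of the break in 34.8%, 36.1% and 36.0% with L67, and a loss of at least 30 bp was seen in 18.4%, 17.9% and 17.8%. The median coding end had lost 13 bp in each L67 library, and the Jκ1 signal end of rejoined breaks lay within 10 bp in 39.9%, 39.3% and 40.2%. With copies counted, all of these lie outside the DMSO range on the side of L82-G17.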

How the data were processed

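HTGTS-JoinT-seq libraries of genomic DNA were analysed from deposited junction lists. Before deposit, the authors trimmed the reads, sampled 500000 read pairs per library, mapped them to mm9 (Bowtie2 is named in the submitters' processing notes) without removing duplicates, and added junctions of the bait region. Counts, percentages and ratios were made here from these lists with Python 3.11.15 and pandas 2.3.3. Gene positions came from GENCODE vM1 on NCBIM37, the assembly of mm9. Vκ break sites required CAC beside the break and 30 or more signal end junctions summed over 9 arrested WT libraries. Junctions were assigned to a site if it lay within 200 bp, the nearest being taken, and prey strand separated coding from signal ends. Bases aligned to both bait and prey were counted as microhomology and unaligned bases between them as insertion, up to 20 bp. Distinct junctions differ in prey position or strand, in the bait end, or in microhomology or insertion length, so independent joints that match in each count as 1. Sub-TAD limits are approximate: they were read from the study's map of the locus and placed in the nearest gap between sites. Antigen receptor windows were whole megabases around each locus.

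Samples were grouped by genotype, bait and treatment labels, which give no replicate numbers, so libraries were numbered in accession order. Library means were compared with exact two-sided permutation tests, and site usage with limma 3.58.1 (R 4.3.3) where a site averaged 50 junctions or more. The fit was tested on simulated data. Named sites are the 10 most used with DMSO and those past the threshold without overlap, of which there were none, plus sites chosen after their values were seen. The members and lists were chosen with earlier results of these data known. Printed sequences were read from NCBIM37.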

Additional observations from a re-analysis of the deposited data

Results flagged for a closer look

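The effect of L82-G17, as the mean with the inhibitor minus the mean with DMSO, differed between Ku70-/- and WT cells in 3 of the 7 measures by exact permutation within genotype at an unadjusted threshold of 0.05. The log2 CE-CE to hybrid ratio effect was 1.58 higher in Ku70-/- (0.82 against -0.76, exact permutation p = 0.005, adjusted p = 0.035). In WT the hybrid counts overlapped between treatments and CE-CE joints were fewer with L82-G17. The effect on the share of junctions within 10 bp was -9.43 points (-9.15 against 0.28, exact permutation p = 0.025, adjusted p = 0.0583). The effect on log2 junctions outside chromosome 6 was 0.64 (0.24 against -0.40, exact permutation p = 0.02, adjusted p = 0.0583). The last 2 do not pass after adjustment over the 7 measures. Junctions outside chromosome 6 are counted here per read pair. In WT they numbered 223, 251 and 188 with L82-G17 and 253, 284 and 334 with DMSO. WT libraries listed 193206, 186395 and 213122 junctions in all with L82-G17 and 385847, 370032 and 370027 with DMSO. Per listed junction, those outside chromosome 6 were thus not fewer on average in WT with L82-G17. The difference between genotypes per listed junction was not tested.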

How the results depend on the processing

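Of 375 alternative values of 39 summary results, 343 kept their direction or, for a count, stayed near the reported one, and 25 results did so under every alternative run for them. For the exact tests of 3 against 3 only the direction could change, since their p cannot pass 0.05. Among these 25 were the CE-CE to hybrid ratio, the share within 10 bp, both prey distances, MH over 1 bp and the deletional share. The results that changed direction had overlapping groups, except for the Jκ region. Beyond leaving out libraries, the cause was not tested. With each junction counted once, the difference between L82-G17 and DMSO became 0.868 points for V-J Eff, 2.06 for direct joints, -6.67 for insertions, 2.18 for 1-bp MH, -0.886 for the sTAD5 share and 0.0608 for the Jκ region. It became 0.37 for log2 translocations to antigen receptor loci. On the same count the effect on V-J Eff in Ku70-/- minus that in WT became 1.60 points (exact permutation p = 0.035), and 4 of 66 sites tested were called. As a share of all junctions instead of read pairs, V-J Eff was 6.46 points higher with L82-G17, without overlap. With CACAGTG sites only, the differences were 0.113 points for sTAD3 and -0.0720 for sTAD5. An alternative chosen after seeing the data counted each junction once without DMSO library 1. It gave 0.0961 points for V-J Eff, 0.337 for 1-bp MH, -1.22 for sTAD5 and 0.0 bp for the median bait loss, and called 22 of 68 sites tested. Direct joints counted once made up 44.4% to 44.6% with L82-G17, 30.9% in DMSO library 1 and 47.97% and 48.4% in libraries 2 and 3. Insertions made up 12.6% to 13.6%, 34.8%, and 12.3% and 12.1% in this order. The Jκ region held 0.3398% to 0.404% of read pairs, 0.0806%, and 0.449% and 0.421%. Receptor locus translocations numbered 46 to 60, 12, and 76 and 78. The turned direction of these measures thus rested on DMSO library 1. That of V-J Eff, 1-bp MH and sTAD5 stayed without it. Array weights called 8 of 96 sites.

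Leaving out each library in turn, V-J Eff differed by -1.25 to 0.546 points, the median bait loss by 0.0 to 1.0 bp, insertions by -0.215 to 0.664 points, sTAD1-2 by -1.43 to 0.884, sTAD3 by -1.94 to 0.523, sTAD4 by -0.322 to 2.71 and sTAD5 by -1.81 to 1.58. Called sites ranged from 0 to 9, the 9 being of 97 tested without DMSO library 1. The difference of effects between genotypes was 32.2 to 34.0 points for V-J Eff and -4.83 to -2.29 points for direct joints. It passed 0.05 by exact permutation without DMSO library 2 (p = 0.035) or 3 (p = 0.045) for V-J Eff and without DMSO library 1 (p = 0.015) for direct joints.

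Of the sites named, some near 0 turned. With array weights the log2 differences were 0.0717 (Igkv8-21), 0.42 (Igkv4-81), 0.98 (Igkv4-58) and 0.62 (Igkv2-109). Counted once they were -0.0472 (Igkv1-135), 0.0418 (Igkv8-21) and 0.32 (Igkv4-58), and without DMSO library 1 as well -0.0381 (Igkv1-135), 0.0195 (Igkv6-32), 0.0295 (Igkv8-21), 0.13 (Igkv4-81), 0.82 (Igkv4-58) and 0.52 (Igkv2-109). In the smaller sequencing run they were 0.0102 (Igkv6-32), 0.0307 (Igkv8-21), -0.00840 (Igkv1-117) and 0.14 (Igkv4-58). Leaving out each library gave -0.58 to 0.99 for Igkv4-58, -0.23 to 0.0576 for Igkv8-21, -0.58 to 0.42 for Igkv4-81, -0.42 to 0.64 for Igkv2-109 and -0.79 to 0.0827 for Igkv9-124.

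No paired analysis was possible because the labels give no replicate numbers. V-J Eff and the Jκ region were not run by sequencing run, which has no read-pair total of its own. The 3 libraries per group limit precision, and amplified copies are not independent molecules.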
